A study of Mus musculus with 12 samples.

Results

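The genes described here are the 31 genes of the integrated stress response and the unfolded protein response, chosen by name from 55401 genes counted in subcutaneous white adipose tissue (scWAT) of mice. They comprise the kinases and transcription factors of the integrated stress response, target genes of the transcription factor ATF4, enzymes of serine and one-carbon metabolism, the sensors of endoplasmic reticulum (ER) stress, and ER chaperones and degradation factors. All 31 were matched to an identifier in the count files by their symbol, and all 31 were among the 16540 genes with enough counts to be tested.

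RNA was sequenced from scWAT of 12 female mice of 16 weeks on a C57BL/6J background, with 3 mice in each of 4 groups. Wild-type mice (Jmjd1a +/+) and mice homozygous for a histidine-to-tyrosine change in the catalytic domain of the histone demethylase JMJD1A (Jmjd1a HY/HY, written HY/HY in what follows) were caged singly and acclimated at 30°C, which is thermoneutral for mice. They then stayed at 30°C or were moved to 8°C for 1 week. The allele was introduced with CRISPR/Cas9 and is carried by every cell of the body, so a difference between genotypes need not arise in adipocytes.

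The integrated stress response starts when kinases such as PERK (Eif2ak3) and GCN2 (Eif2ak4) phosphorylate the translation factor eIF2α. Most translation then slows, while the mRNAs of *Atf4*, *Atf5* and *Ddit3* are translated better, and ATF4 with its partners raises transcription of genes for amino acid supply. The unfolded protein response is the answer of the ER to misfolded proteins: PERK, IRE1α (Ern1) and ATF6 sense them, IRE1α splices the mRNA of *Xbp1*, and ATF6 and spliced XBP1 raise chaperones and degradation factors. In cold-exposed adipose tissue these pathways are known for their link to mitochondrial stress signals such as FGF21 and to the turnover of ER proteins by NFE2L1 and the proteasome. Much of this control acts on translation, splicing and proteolysis, and gene counts measure none of these.

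Counted read pairs per library ranged from 13592629 to 26352081, and every library from 8°C held fewer than every library from 30°C. Levels are given as CPM, the counts of a gene relative to a library size scaled by TMM, and the fitted values are log2 fold changes with the SE. A gene was called when its adjusted p was under 0.05 and its fold change was above 1.5 or below 0.67, with the first condition alone for the interaction, the cold response in the HY/HY genotype less that in the wild type. Unless another fit is named, a call is that of the main fit. The main fit is edgeR with TMM, its default filter, all 12 libraries and no replicate block. A lack of overlap between the libraries of the groups compared was common. It held for 43.4% of all genes with cold in wild-type mice and 18.3% in HY/HY animals. Between genotypes it held for 18.3% at 30°C and 35.4% at 8°C. Of the 31 members it held for 12, 3, 4 and 12, in the same order. *Kdm3a*, the gene of JMJD1A, stood at 35.7 to 61.7 CPM in all groups, and gene counts cannot tell the mutant from the wild-type transcript. *Ucp1*, the uncoupling protein of thermogenic adipocytes, stood at 0.116 to 4.58 CPM in the 6 libraries from 30°C, at 5048 to 6055 CPM in wild-type mice at 8°C and at 212 to 904 CPM in HY/HY animals at 8°C. White adipocyte markers were abundant in every library, with summed levels of 22576 to 50610 CPM over 8 genes. In such a bulk tissue, fewer cells of a type and less RNA per cell cannot be told apart.

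After a week at 8°C the stress genes of wild-type mice did not move as a block. Called higher were *Atf5*, *Psph*, *Mthfd2* and *Dnajb9*, and called lower were *Phgdh* and *Xbp1*, which is 4 and 2 of the 31 genes. Of all genes tested, 10.3% were called higher and 6.93% lower in the same comparison, so neither count of members stands far from the background. The median log2 fold change of the members was 0.02, beside −0.07 over all genes. With library totals in place of TMM, which lowers the median of all genes to −0.41, 3 members were called higher and 7 lower. Of the 16540 genes tested, that fit called 1057 higher and 4144 lower. *Mthfd2* was no longer called, and *Pdia4*, *Pdia6*, *Sdf2l1*, *Ern1* and *Aldh18a1* were added among the lower members.

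**Figure D1:**
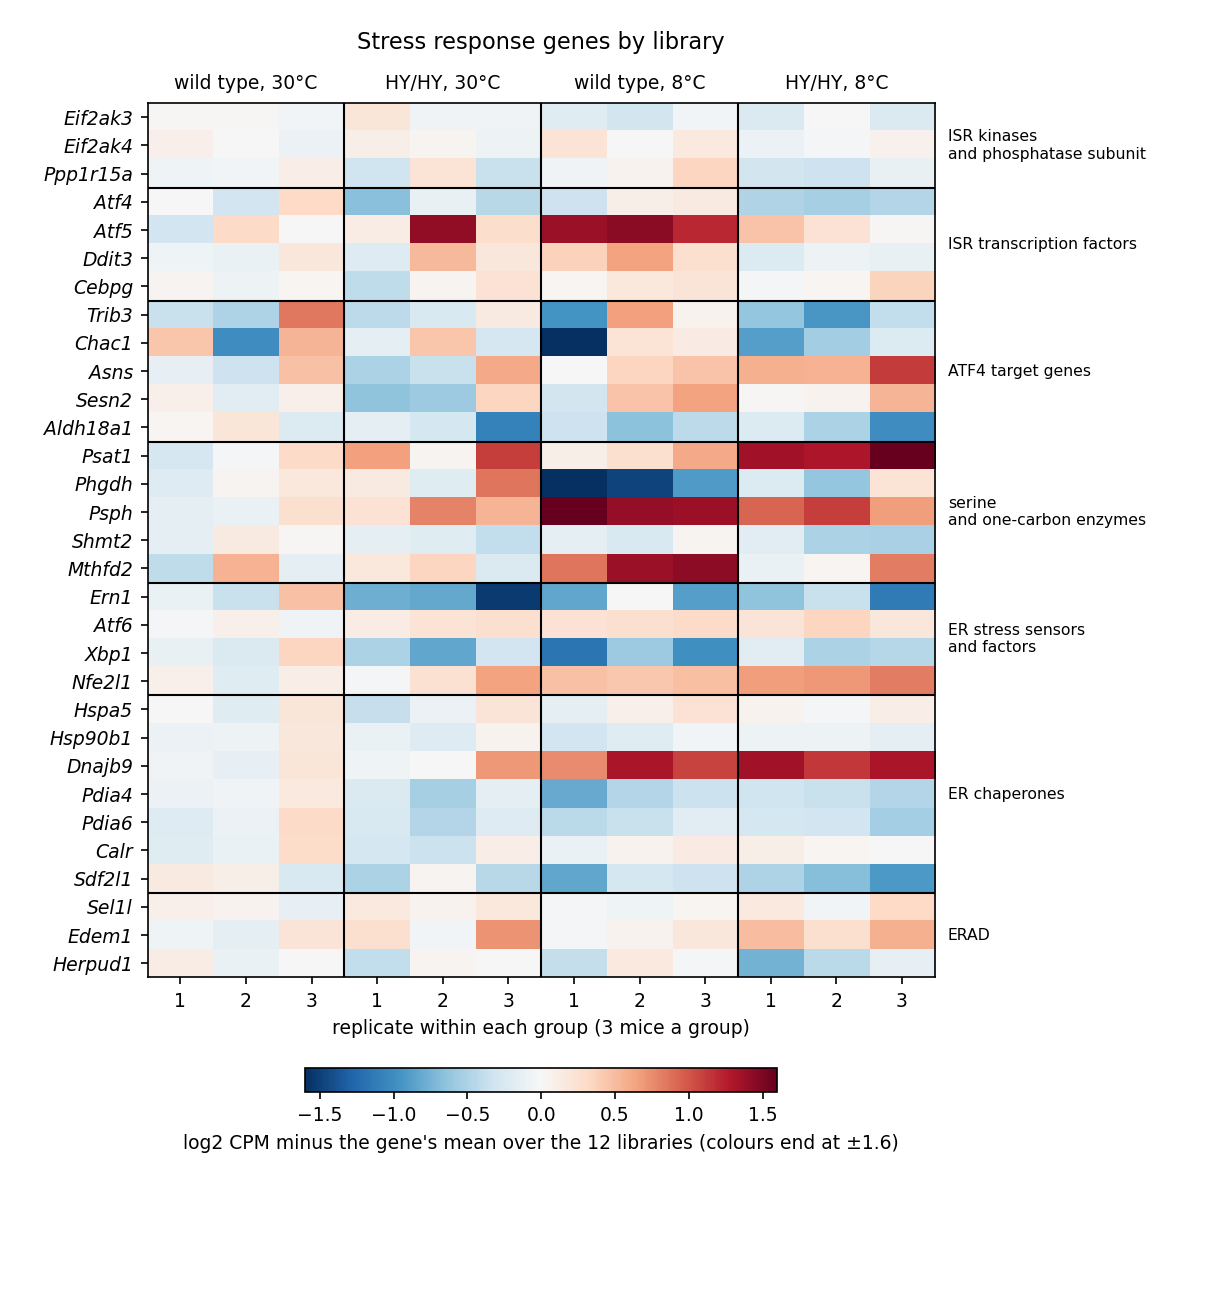
Each row is one of the 31 genes and each column one of the 12 mice. The colour gives the log2 CPM minus the gene's mean in wild-type mice at 30°C, with colours ending at ±1.6. The label of the colour bar names the mean over the 12 libraries, which is not what was subtracted. Genes are grouped by role (ISR, integrated stress response, and ERAD, ER-associated degradation). *Atf5*, *Psph* and *Mthfd2* are dark red in wild-type mice at 8°C, and *Atf5* is as dark in replicate 2 of the HY/HY animals at 30°C, at 1.41. *Phgdh* and *Xbp1* are blue in wild-type mice at 8°C, *Dnajb9* is red in both groups at 8°C, and most chaperones stay pale.

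In HY/HY animals no member was called between 8°C and 30°C by the main fit, where 0.181% of all genes were called higher and 0.0665% lower. At an unadjusted p under 0.05 there were 5 such members, and the share of all genes at that limit was not counted. DESeq2 called 2, *Dnajb9* and *Psat1*, beside 211 higher and 91 lower of 16540 genes. Between the 2 HY/HY groups, deviations from the group mean correlated at 0.11 to 0.30 in mice with the same replicate number, which does not show a pairing. With that number as a block edgeR called 3 members higher, *Asns*, *Psat1* and *Dnajb9*. In that fit 0.774% of all genes were called higher and 0.193% lower. Without the block, edgeR called 1 member higher with library totals and 1 without a filter, in both cases *Dnajb9*. Those fits called 37 higher and 18 lower of 16540 genes, and 101 higher and 49 lower of 31016. The count of 0 therefore depends on the settings of the fit. Without replicate 3 of the HY/HY animals at 30°C, edgeR called 4 members higher, namely *Dnajb9*, *Psat1*, *Asns* and *Nfe2l1*. That fit called 461 higher and 203 lower of 16926 genes, beside 30 and 11 of 16540 with all libraries. The spread between replicates at 30°C was larger than at 8°C, with a biological coefficient of variation over all genes of 26.8% in HY/HY animals and 24.3% in wild-type mice at 30°C, beside 15.5% and 12.1% at 8°C.

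Between genotypes at 30°C no member was called by the main fit, where 0.562% of all genes were called higher and 0.441% lower in HY/HY animals. Here 8 members had an unadjusted p under 0.05, without a share of all genes to set beside them. DESeq2 called 1, *Ern1*, beside 367 higher and 316 lower of 16540 genes. Without a filter edgeR called the same member, beside 284 higher and 283 lower of 31016 genes. At 8°C *Psat1* and *Phgdh* were called higher in HY/HY animals and *Atf5* lower, which is 2 and 1 of 31 beside 1.51% and 4.42% of all genes. The interaction was called for *Atf5* and *Psph*, in both cases with a lower cold response in HY/HY animals, beside 2.07% of all genes called in that direction and 0.169% in the other. The wild-type mice at 8°C serve in the cold comparison of wild-type mice, in the comparison of genotypes at 8°C and in the interaction, so a level in these 3 libraries moves all 3 values together. With library totals, *Xbp1* joined *Psat1* and *Phgdh* at 8°C in place of *Atf5*, so that 3 members were called higher and 0 lower. In the interaction *Xbp1* alone was called, higher in HY/HY animals. Of 16540 genes, library totals gave 535 higher and 480 lower at 8°C, and 43 higher and 186 lower in the interaction.

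**Figure D2:**
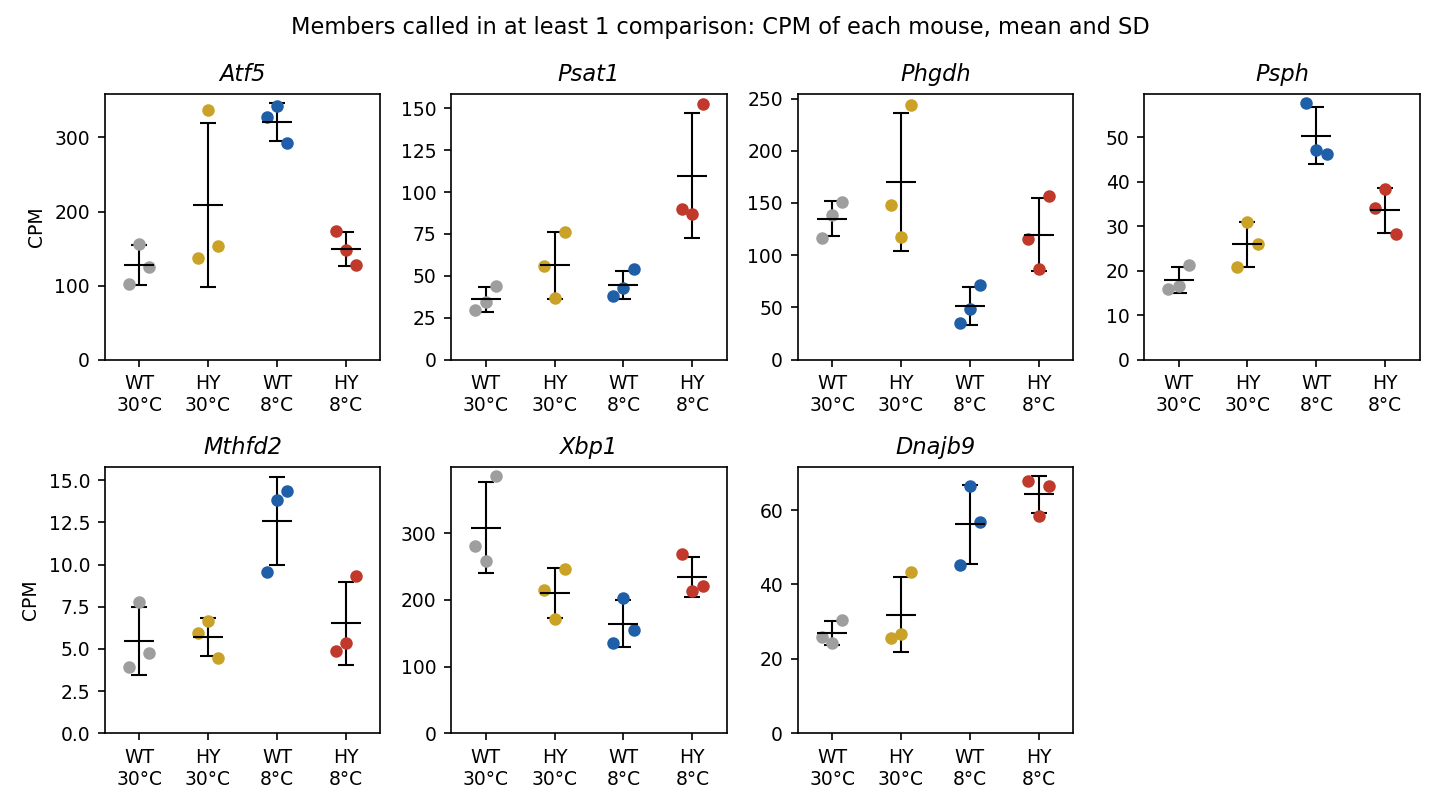
CPM of the 7 members called in at least 1 comparison, in each of the 12 mice (dots), with the mean and SD of 3 mice (bars); the vertical axes start at 0. *Atf5*, *Psph* and *Mthfd2* are highest in wild-type mice at 8°C, *Phgdh* is lowest there, *Psat1* is highest in HY/HY animals at 8°C, and *Dnajb9* is high in both groups at 8°C.

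Compared per kilobase of exon, the abundant members in wild-type mice at 30°C were chaperones and transcription factors. *Calr* stood at 156 CPM per kilobase, *Atf4* at 122, *Hspa5* at 98.5, *Xbp1* at 94.9 and *Hsp90b1* at 81.5. At the other end were *Chac1* at 2.89, the kinase gene *Eif2ak4* at 2.19 and *Mthfd2* at 2.01 CPM per kilobase. In wild-type mice at 8°C *Atf5*, which had stood at 64.4, was at 161 CPM per kilobase beside 158 for *Calr*, while in HY/HY animals at 8°C it was at 75.2 beside 159.6.

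None of the 2 kinases and the phosphatase subunit of the integrated stress response was called in any comparison. PERK and GCN2 differ in what they sense, namely misfolded ER protein and uncharged tRNA. *Eif2ak3* stood at 15.5 to 21.7 CPM and *Eif2ak4* at 15.3 to 19.1 CPM over all 12 libraries, and the 95% intervals of their cold responses in wild-type mice, −0.43 to 0.09 and −0.11 to 0.36 on the log2 scale, leave room for small changes only. *Ppp1r15a* (GADD34), which recruits the phosphatase that ends the response, was the most abundant of the 3 in CPM. It stood at 24.0, 24.4 and 27.1 CPM in wild-type mice at 30°C, 24.2, 26.2 and 31.8 at 8°C, 20.1, 29.2 and 19.5 in HY/HY animals at 30°C and 20.4, 19.9 and 23.1 at 8°C. At 8°C the genotypes did not overlap for *Ppp1r15a*, as was so for 35.4% of all genes. The log2 difference of −0.38 ± 0.16 (SE) was not called, with an adjusted p of 0.195.

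Among the transcription factors, the cold response of *Atf5* differed between the genotypes. *Atf5* (chr7:44812256-44816658 in GRCm38) encodes a bZIP factor known as a regulator of the mitochondrial unfolded protein response. Its level was 102, 157 and 125 CPM in wild-type mice at 30°C and 328, 343 and 292 CPM at 8°C. In HY/HY animals it was 137, 337 and 153 CPM at 30°C and 173, 149 and 128 CPM at 8°C. Wild-type libraries from the 2 temperatures did not overlap, whereas in HY/HY animals they did, and replicate 2 at 30°C reached the level of cold wild-type mice.

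The wild-type response of *Atf5* was 1.32 ± 0.30 (log2, SE; 2.5-fold, adjusted p = 0.00816 by edgeR's quasi-likelihood test). It was −0.48 ± 0.29 in HY/HY animals, where it was not called (adjusted p = 0.476). The difference between these responses was −1.80 ± 0.42 with an adjusted p of 0.0461, and the difference between genotypes at 8°C was −1.10 ± 0.29 with an adjusted p of 0.0439. Both of these calls lie close to the threshold. Without replicate 2 of the HY/HY animals at 30°C, the library with the high level, the interaction was −1.28 with an adjusted p of 0.0373. The interaction call was lost in 9 of the 12 fits that left out 1 library, and the call at 8°C in 8 of them, among these all 3 without a cold HY/HY animal, with an adjusted p of up to 0.165. *Atf5* overlaps *Nup62* and *Il4i1b* in the annotation, and with counts of both strands the interaction was not called.

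*Atf4* itself, the central factor of the pathway, was not called with cold in either genotype. Its wild-type value was −0.04 (log2, 95% interval −0.44 to 0.37) and its HY/HY value −0.10 (−0.50 to 0.31). Its level was 164, 221 and 228 CPM in wild-type mice and 148, 143 and 149 CPM in HY/HY animals at 8°C. These libraries did not overlap, as was so for 35.4% of all genes. The difference of −0.48 ± 0.19 was not called (adjusted p = 0.152), nor was the −0.42 ± 0.19 seen at 30°C (adjusted p = 0.255). *Ddit3* (CHOP), a factor of late ER stress that is linked to cell death, had a pattern of the same shape as that of *Atf5* at a smaller size and without a call. It stood at 17, 16.5 and 20.1 CPM in wild-type mice at 30°C and at 23.0, 27.8 and 21.3 CPM at 8°C, and in HY/HY animals at 15.4, 25.4 and 20.2 CPM at 30°C and 15.3, 16.8 and 16.3 CPM at 8°C. The interaction for *Ddit3* was −0.76 ± 0.25 (adjusted p = 0.156), and the difference at 8°C was −0.58 ± 0.18 (adjusted p = 0.0711). *Cebpg*, a C/EBP protein that pairs with ATF4, ranged from 68.2 to 115 CPM and had log2 differences between −0.02 and 0.15 in all 5 comparisons.

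None of the 5 ATF4 target genes was called in any comparison by the main fit. *Asns* was called higher with cold in HY/HY animals with the replicate block and without replicate 3 at 30°C. *Aldh18a1* was called lower with cold in wild-type mice with library totals. The 5 genes are *Trib3*, a pseudokinase that feeds back on ATF4, *Chac1*, which degrades glutathione, *Asns*, which makes asparagine, *Sesn2*, a leucine sensor that restrains mTORC1, and *Aldh18a1*, which starts proline synthesis. *Asns*, the most abundant of them in CPM, stood at 61.9, 54.1 and 94.1 CPM in wild-type mice at 30°C and at 68.0, 86.1 and 93.1 CPM at 8°C. In HY/HY animals it stood at 47.8, 53.3 and 104 CPM at 30°C and at 101, 100.4 and 148 CPM at 8°C. At 8°C all 3 HY/HY animals were above the wild-type mice, and in each HY/HY group 1 mouse, replicate 3, stood well above the others. A separation of the genotypes at 8°C, in either direction, was seen for 35.4% of all genes.

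The cold response of *Asns* in HY/HY animals was 0.77 ± 0.30 with an adjusted p of 0.264. With the replicate block it was 0.82 with an adjusted p of 0.0397, and without replicate 3 at 30°C it was 1.20 with an adjusted p of 0.0271. *Trib3* and *Chac1* varied most among replicates. *Trib3* ranged from 7.43 to 23.0 CPM within the wild-type mice at 8°C, and *Chac1*, which had as few as 14 counts in a library, from 1.04 to 4.98 CPM, so that their 95% intervals for the wild-type cold response ran from −0.94 to 0.81 and from −1.50 to 0.71. *Sesn2* had log2 cold responses of 0.32 ± 0.29 and 0.46 ± 0.29 in the 2 genotypes, and *Aldh18a1* of −0.48 ± 0.24 and −0.10 ± 0.24.

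*Asns* and *Chac1* carry upstream of their start sites the core of the C/EBP-ATF response element, the sequence through which ATF4 is known to act, and these stretches are shown because both genes are known targets of the factor. The search was for TGATGNAA on either strand in the 250 bases before and 50 after the start, in RefSeq promoters of GRCm38.p6. It matched 4 of the 30 members with a promoter there (*Asns*, *Chac1*, *Trib3* and *Herpud1*), which is 13.33%, beside 4.511% of all genes with a promoter. Capitals mark the match, the sequence is written along the gene's strand, and in *Chac1* the match is on the opposite strand.
Asns, chr6:7693210-7693252, minus strand: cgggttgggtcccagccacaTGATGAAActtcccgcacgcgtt
Chac1, chr2:119351029-119351076, plus strand: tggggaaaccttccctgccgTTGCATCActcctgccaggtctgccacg

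The enzymes of serine synthesis, which are also known as ATF4 targets, moved in different directions. Serine is made from the glycolytic intermediate 3-phosphoglycerate in 3 steps by PHGDH, PSAT1 and PSPH, and the mitochondrial enzymes SHMT2 and MTHFD2 pass its carbon on to folate. In wild-type mice at 8°C the gene of the third step was called higher and that of the first step lower, and in HY/HY animals the genes of the first and second steps were called higher than in wild-type mice at 8°C.

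*Phgdh* (chr3:98313171-98339969) stood at 117, 138 and 151 CPM in wild-type mice at 30°C and at 34.7, 48.1 and 71.4 CPM at 8°C. In HY/HY animals it stood at 148, 117 and 244 CPM at 30°C and at 116, 87.1 and 157 CPM at 8°C. The 3 cold wild-type mice lay below all other libraries. The wild-type response was −1.39 ± 0.31 (0.381-fold, adjusted p = 0.00847), the response in HY/HY animals −0.50 ± 0.31 (adjusted p = 0.479), and the difference between genotypes at 8°C 1.22 ± 0.31 (2.33-fold, adjusted p = 0.0367). The interaction of 0.89 ± 0.44 was not called (adjusted p = 0.373), so the cold responses of *Phgdh* are not shown to differ.

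*Psat1* (chr19:15905123-15925059) stood at 29.4, 34.6 and 43.7 CPM in wild-type mice at 30°C and at 37.9, 42.5 and 54.0 CPM at 8°C. In HY/HY animals it stood at 56.0, 36.7 and 76.4 CPM at 30°C and at 90.2, 86.8 and 153 CPM at 8°C. Cold HY/HY animals lay above all other libraries, with replicate 3 the highest. The difference between genotypes at 8°C was 1.29 ± 0.28 (2.45-fold, adjusted p = 0.0188), and that at 30°C was 0.65 ± 0.28 (adjusted p = 0.243). The cold response of *Psat1* in HY/HY animals was 0.96 ± 0.28 (adjusted p = 0.165), and with the replicate block it was called, at 0.96 with an adjusted p of 0.0261. The calls of *Psat1* and *Phgdh* at 8°C were both lost without replicate 3 of the cold HY/HY animals, with adjusted p of 0.0838 and 0.151. Both were also lost without replicate 1 and without replicate 2 of the cold wild-type mice, and that of *Phgdh* without replicate 1 of the cold HY/HY animals and without replicate 1 of the wild-type mice at 30°C.

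*Psph* (chr5:129765558-129787443) went the other way. It stood at 16, 16.6 and 21.3 CPM in wild-type mice at 30°C and at 57.7, 47.1 and 46.3 CPM at 8°C. In HY/HY animals it stood at 20.9, 30.9 and 26.1 CPM at 30°C and at 34.1, 38.4 and 28.3 CPM at 8°C. Cold wild-type mice lay above all other libraries for *Psph*. The wild-type response was 1.49 ± 0.17 (2.81-fold, adjusted p = 0.000151), the response in HY/HY animals was 0.37 ± 0.17 (adjusted p = 0.341), and the interaction was −1.12 ± 0.24 (adjusted p = 0.0377). The difference between genotypes at 8°C, −0.58 ± 0.17, was not called by the main fit (adjusted p = 0.0637), while DESeq2 gave an adjusted p of 0.0225. The interaction call was lost in 10 of the 12 fits that left out 1 library, all but those without replicate 1 of the HY/HY animals and without replicate 3 of the wild-type mice at 30°C. It was also lost with library totals in place of TMM, where the adjusted p was 0.119. The gene overlaps *Cct6a* in the annotation.

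The ratio of *Phgdh* to *Psph* CPM, formed after the values were seen, puts these directions into 1 number per mouse. It was 7.29, 8.34 and 7.08 in wild-type mice at 30°C and 0.601, 1.02 and 1.54 at 8°C. In HY/HY animals it was 7.10, 3.78 and 9.36 at 30°C and 3.39, 2.27 and 5.53 at 8°C. The ratio was below that of all other libraries in the 3 cold wild-type mice. This follows from the levels of both genes given above and is no further result.

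*Mthfd2* (chr6:83305704-83326011), the mitochondrial dehydrogenase of the folate cycle, was low throughout. It stood at 3.94, 7.76 and 4.73 CPM in wild-type mice at 30°C and at 9.59, 13.8 and 14.4 CPM at 8°C, and in HY/HY animals at 5.93, 6.68 and 4.47 CPM at 30°C and 4.86, 5.38 and 9.34 CPM at 8°C. Cold wild-type mice again lay above all other libraries. The wild-type response was 1.19 ± 0.30 (2.29-fold, adjusted p = 0.0159), and it was lost without replicate 1 at 30°C, without replicate 2 or without replicate 3 at 8°C, with adjusted p between 0.0531 and 0.0609. Neither the difference at 8°C of −0.96 ± 0.31 (adjusted p = 0.0844) nor the interaction of −1.01 ± 0.43 (adjusted p = 0.297) was called. *Shmt2*, the mitochondrial serine hydroxymethyltransferase, ranged from 21.8 to 34.5 CPM over the 12 libraries and had log2 differences between −0.28 and −0.03 in the 5 comparisons.

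Markers of other cells moved with some of these groups. Summed over 6 genes, thermogenic adipocyte markers stood at 7884 to 8798 CPM in cold wild-type mice, 511 to 1620 CPM in cold HY/HY animals and at most 228 CPM at 30°C, an order that *Atf5*, *Psph* and *Mthfd2* follow at 8°C. Summed over 5 genes, fibroblast and progenitor markers stood at 1151 to 1556 CPM in cold wild-type mice and 1780 to 2567 CPM in cold HY/HY animals, and at 1267 to 1890 and 1416 to 3115 CPM at 30°C. Of these 5, 1 was called higher in cold HY/HY animals than in cold wild-type mice. Macrophage markers, summed over 8 genes, stood at 182 to 192 CPM in cold wild-type mice and 275 to 383 CPM in cold HY/HY animals, without overlap, and at 225 to 237 and 248 to 442 CPM at 30°C. Of these 8, 2 were called higher in cold HY/HY animals than in cold wild-type mice, *Csf1r* and *Mrc1*. The macrophage and fibroblast sums, both without overlap at 8°C, share the order of *Phgdh* and *Psat1* there. Of 8 white adipocyte markers, 2 were called higher in cold HY/HY animals than in cold wild-type mice and 0 lower. These were *Lep* at 1.99 and *Retn* at 0.79. With cold in wild-type mice *Lep* and *Cfd* were called lower, at −1.38 and −0.97, and 0 were called higher.

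Endothelial markers, summed over 4 genes, stood at 395 to 582 CPM at 30°C and 705 to 989 CPM at 8°C in the wild type, and at 544 to 672 and 561 to 732 CPM in HY/HY animals. Of these 4, 3 were called higher with cold in wild-type mice, *Pecam1*, *Cdh5* and *Kdr*. Of 7 skeletal muscle markers 6 were called lower with cold in wild-type mice, and these calls rest on 1 library. Their sum was 1414 CPM in replicate 2 of the wild-type mice at 30°C and 3.20 to 24.1 CPM in the other 11 libraries. Without that library the same 6 members were called with cold in wild-type mice and the same 3 between genotypes at 8°C, while neither interaction call, of *Atf5* and *Psph*, was made. Of 4 Schwann cell markers 1, *S100b*, was called. It was higher with cold in wild-type mice, with a lower value in cold HY/HY animals than in cold wild-type mice and a negative interaction. No marker of plasma cells or of B and T cells was called in any comparison. In the thermogenic, fibroblast, macrophage, endothelial and Schwann cell lists no marker was at 0 in all libraries of a group, and of the muscle list 1 was, in cold HY/HY animals. Apart from that left-out library, the part of these cells in the values of the members was not tested.

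Among the sensors and factors of ER stress, only *Xbp1* was called, lower in cold wild-type mice. *Xbp1* (chr11:5520641-5525993), the factor whose mRNA IRE1α splices, stood at 280.2, 258 and 386 CPM in wild-type mice at 30°C and at 135, 203 and 154 CPM at 8°C. In HY/HY animals it stood at 214, 171 and 246 CPM at 30°C and at 269, 214 and 221 CPM at 8°C. The wild-type libraries did not overlap between temperatures, and those of HY/HY animals did. The wild-type response was −0.91 ± 0.20 (0.532-fold, adjusted p = 0.00841), and the response in HY/HY animals was 0.16 ± 0.20 (adjusted p = 0.762). The interaction of 1.07 ± 0.29 was not called by the main fit (adjusted p = 0.0867). It was called by DESeq2 (adjusted p = 0.0175) and by edgeR with library totals (adjusted p = 0.0316) and without a filter (adjusted p = 0.048). These counts take spliced and unspliced *Xbp1* together.

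*Ern1*, the sensor that splices *Xbp1*, stood at 31.6, 26.4 and 46.9 CPM in wild-type mice and at 19.8, 19.2 and 11.7 CPM in HY/HY animals at 30°C. These libraries did not overlap, as was so for 18.3% of all genes at 30°C. The log2 difference of −1.04 ± 0.30 was not called by the main fit (adjusted p = 0.103). It was called by edgeR without a filter (adjusted p = 0.034) and by DESeq2 (adjusted p = 0.0248). At 8°C the genotypes overlapped, with a difference of −0.16 ± 0.31. Mammary epithelium, which lies within this fat depot of female mice and is rich in secretory ER, left its markers in every library. Summed over 7 keratin and epithelial genes, they stood at 2451 to 4130 CPM in wild-type mice at 30°C, 1517 to 1746 CPM in wild-type mice at 8°C. In HY/HY animals the sums were 608 to 1704 CPM at 30°C beside 821 to 1390 CPM at 8°C. Of the 7, 2 were called lower in the cold in wild-type mice, and none was at 0 in a whole group. The part of this epithelium in the values of *Xbp1*, *Ern1* and *Phgdh* was not tested.

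*Atf6*, the membrane-bound factor that is freed by proteolysis in the Golgi, was narrowly spread. In wild-type mice its levels did not overlap between temperatures, at 32.4 to 35.6 CPM at 30°C beside 39.6 to 41.8 CPM at 8°C, and the response of 0.26 ± 0.08 had an adjusted p of 0.0408 but missed the fold limit. In HY/HY animals *Atf6* stood at 36.8 to 40.2 CPM at 30°C and 38.5 to 42.8 CPM at 8°C. *Nfe2l1*, a factor held at the ER that drives proteasome genes and is required in thermogenic fat, had log2 cold responses of 0.46 ± 0.16 and 0.41 ± 0.16. Its levels did not overlap between temperatures in either genotype. They stood at 241 to 298 and 371 to 387 CPM in wild-type mice and at 272 to 429 and 437 to 485 CPM in HY/HY animals. Neither response was called (adjusted p = 0.0591 and 0.271). Of all genes, 43.4% did not overlap between temperatures in wild-type mice and 18.3% in HY/HY animals.

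**Figure D3:**
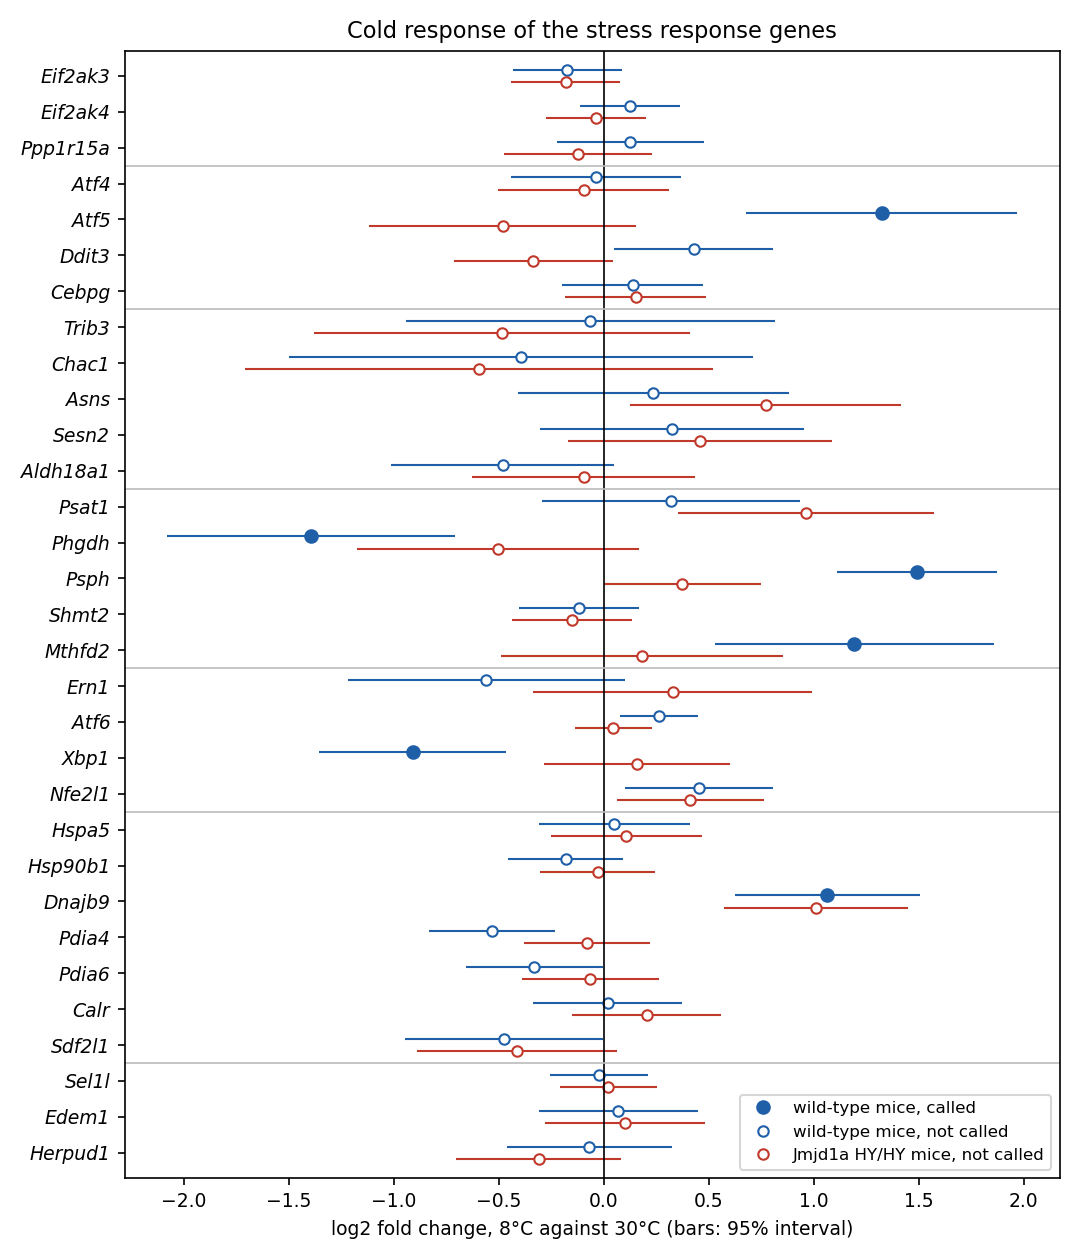
Log2 fold change between 8°C and 30°C of each of the 31 genes in wild-type mice (blue) and HY/HY animals (red), with 95% intervals from the edgeR fit. Filled points are called. Calls are those without a replicate block. *Dnajb9* has nearly the same value in both genotypes, while the intervals of *Atf5*, *Psph*, *Xbp1* and *Ddit3* do not overlap between the genotypes. Of these, only *Atf5* and *Psph* were called in the interaction.

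Of the ER chaperones, *Dnajb9* (chr12:44205897-44210068) alone was called. ERdj4, its product, is a cochaperone that binds misfolded ER proteins and restrains IRE1α, and the gene is known as a target of spliced XBP1. It stood at 25.7, 24.3 and 30.5 CPM in wild-type mice at 30°C and at 45.3, 66.5 and 56.8 CPM at 8°C. In HY/HY animals it stood at 25.6, 26.6 and 43.5 CPM at 30°C and at 67.7, 58.4 and 66.4 CPM at 8°C. In both genotypes every mouse at 8°C was above every mouse at 30°C.

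The wild-type response of *Dnajb9* was 1.07 ± 0.20 (2.09-fold, adjusted p = 0.00339) and that of HY/HY animals 1.01 ± 0.20 (2.02-fold, adjusted p = 0.0745). The second was not called by the main fit, and was called in 5 of 20 alternatives. These were the replicate block (1.04, adjusted p = 0.0295), DESeq2 (adjusted p = 0.000867) and 3 edgeR fits without a block. These 3 used library totals (0.91, adjusted p = 0.0236), no filter (0.99, adjusted p = 0.0107) or left out replicate 3 of the HY/HY animals at 30°C (1.30, adjusted p = 0.00467). The difference between the responses was −0.05 with a 95% interval of −0.67 to 0.56.

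The classical chaperones were not called in any comparison. *Hspa5* (BiP), the main ER chaperone of the HSP70 family, had log2 cold responses of 0.05 (95% interval −0.31 to 0.41) and 0.11 (−0.25 to 0.47). *Hsp90b1* (GRP94) had −0.18 (−0.46 to 0.09) and −0.03 (−0.30 to 0.25), and *Calr*, the calcium-binding lectin calreticulin, had 0.02 (−0.33 to 0.37) and 0.20 (−0.15 to 0.56). All 6 intervals lie within the fold limits of 0.67 and 1.5. The levels ranged from 267 to 402 CPM for *Hspa5*, from 266 to 371 CPM for *Hsp90b1* and from 350.4 to 545 CPM for *Calr* over all 12 libraries.

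The disulfide isomerases had negative log2 values with cold in wild-type mice. *Pdia4* stood at 96.9 to 116 CPM at 30°C and 59.2 to 81.7 CPM at 8°C there, without overlap, and its response of −0.53 ± 0.14 had an adjusted p of 0.0173 but missed the fold limit. *Pdia6* had −0.33 ± 0.15 (adjusted p = 0.125), and *Sdf2l1*, an ER protein that works with BiP and was the least abundant chaperone, had −0.48 ± 0.22 (adjusted p = 0.127). In HY/HY animals the responses of *Pdia4* and *Pdia6* were −0.08 and −0.06, and that of *Sdf2l1* was −0.41 ± 0.22. With library totals in place of TMM these 3 were called lower in wild-type mice, at −0.87, −0.66 and −0.83. That fit called 4144 of 16540 genes lower.

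Upstream of *Hspa5*, *Hsp90b1*, *Calr* and *Pdia6* lies the ER stress response element, which ATF6 is known to bind, and it is shown because these 4 genes share it and none of them was called in any of the 5 comparisons. The search was for CCAAT and CCACG separated by 9 bases of any kind, on either strand. It matched these 4 of 30 members, or 13.33%, beside 0.1369% of all genes with a promoter, and *Hsp90b1* holds 2 matches. *Dnajb9* and *Xbp1* had no match in the same window, which says only that these letters are not in it. Capitals mark the match, and in *Calr* it lies on the opposite strand.
Hspa5, chr2:34772005-34772063, plus strand: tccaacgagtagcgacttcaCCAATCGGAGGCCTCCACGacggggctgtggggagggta
Hsp90b1, chr10:86705618-86705676, minus strand: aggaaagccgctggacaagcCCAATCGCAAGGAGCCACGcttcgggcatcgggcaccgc
Calr, chr8:84847055-84847113, minus strand: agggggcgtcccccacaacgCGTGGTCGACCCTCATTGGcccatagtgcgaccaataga
Pdia6, chr12:17266471-17266529, plus strand: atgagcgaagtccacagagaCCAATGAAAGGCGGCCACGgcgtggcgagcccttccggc

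None of the 3 genes of ER-associated degradation was called in any comparison. *Sel1l*, the scaffold of the HRD1 ubiquitin ligase, was the most abundant of the 3 in CPM. It stood at 81.0, 79.3 and 69.9 CPM in wild-type mice at 30°C, 75.6, 72.8 and 78.3 at 8°C, 85.4, 79.7 and 86.4 in HY/HY animals at 30°C and 85.3, 74.5 and 95.6 at 8°C. Its log2 cold responses were −0.02 (95% interval −0.25 to 0.21) and 0.02 (−0.21 to 0.25), also within the fold limits. *Edem1*, which hands misfolded glycoproteins to degradation, had 0.07 and 0.10, and *Herpud1*, a membrane component of the ligase complex, had −0.07 and −0.31, none of them called.

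The same pathways were followed through 190 further genes in 9 lists. Of these, 186 were tested, and with cold in wild-type mice 24 were called higher and 5 lower. That is 12.9% and 2.69% of those tested, beside 10.3% and 6.93% of all genes, so the share of both together, 15.6%, lies below the 17.3% of all genes. With cold in HY/HY animals and between genotypes at 30°C the main fit called 0, where 41 and 27 had an unadjusted p under 0.05 and DESeq2 called 3 and 2. With the replicate block 2 were called higher with cold in HY/HY animals, *Sfxn1*, a mitochondrial serine transporter, at 0.77 and *Psma1*, a core proteasome subunit, at 0.59. Genes of the mitochondrial stress response were the fullest list. Of its 12 genes 7 were called higher in cold wild-type mice, and all 12 had positive values, with a median log2 fold change of 0.83. The 7 are 58.3% of the list, beside the 10.3% of all genes called higher. In HY/HY animals 10 of the 12 had positive values and an unadjusted p under 0.05 was reached by 10, with a median of 0.36 beside −0.01 over all genes, and 0 were called. With library totals 5 were called in wild-type mice and 9 were positive, with a median of 0.50, and in HY/HY animals 10 were positive, with a median of 0.24.

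*Hspa9* (mortalin), the HSP70 of the mitochondrial matrix, stood at 439, 419 and 499 CPM in wild-type mice at 30°C and at 1156, 1296 and 1279 CPM at 8°C. In HY/HY animals it stood at 443, 629.7 and 640.1 CPM at 30°C and at 700.4, 761 and 812 CPM at 8°C. Cold raised *Hspa9* by 1.46 ± 0.16 in wild-type mice (2.75-fold, adjusted p = 0.000117), and the interaction was −1.05 ± 0.23 (adjusted p = 0.0377). *Dnaja3*, its cochaperone, and *Afg3l2*, a protease of the inner membrane, had wild-type responses of 1.43 and 1.35. All 3 were called lower in cold HY/HY than in cold wild-type mice, at −0.71, −0.89 and −0.74.

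Of 38 proteasome genes 8 were called higher in cold wild-type mice and 0 lower, and 36 had positive values, with a median of 0.35. The 8 are 21.1% of the list, beside 10.3% of all genes. *Psmb5* and *Psmb7*, catalytic subunits of the core, and *Psma6*, a subunit of its outer ring, had the highest of the called values, at 1.05, 0.97 and 0.74. In HY/HY animals the median of the 38 genes was 0.18, 32 had positive values, 15 had an unadjusted p under 0.05, and 0 were called by the main fit. With library totals in place of TMM, 2 of the 38 were called higher in wild-type mice, beside 1057 of 16540 genes. Of the 38, 20 had positive values and their median was 0.01, beside the −0.41 of all genes. *Psma6* was not called, at 0.41. In HY/HY animals library totals gave a median of 0.05 and 22 positive values.

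**Figure D4:**
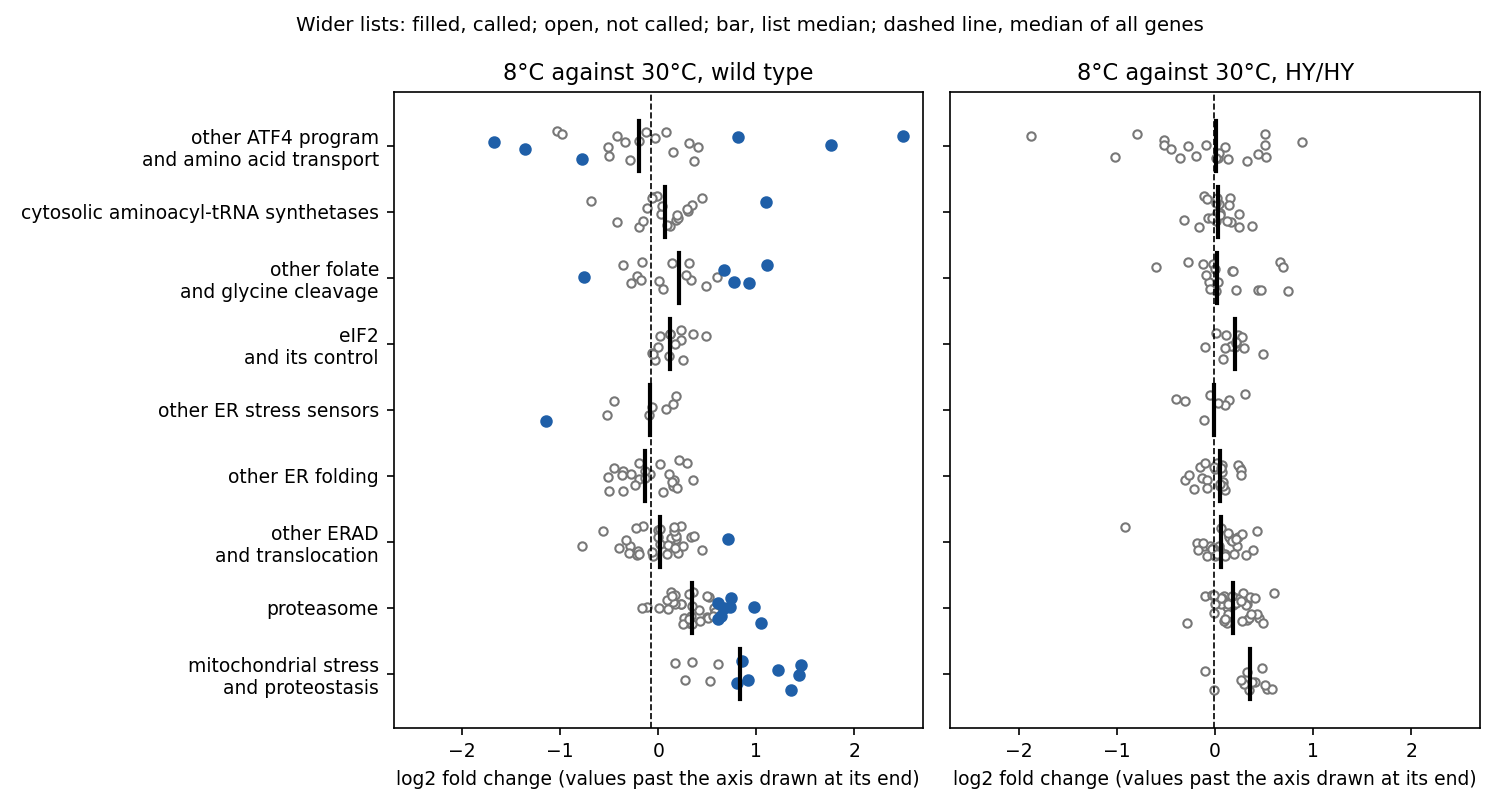
Log2 fold change between 8°C and 30°C of the 186 genes tested in 9 wider lists, in wild-type mice (left) and HY/HY animals (right), with values beyond the axis drawn at its end. Filled points are called, bars are list medians and the dashed line is the median of all genes. The medians of the proteasome and mitochondrial lists lie right of the dashed line in wild-type mice, at 0.35 and 0.83, and in HY/HY animals, at 0.18 and 0.36. With library totals the proteasome medians are 0.01 and 0.05. Calls are those without a replicate block, and the ER folding list straddles the line.

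The other genes of the ATF4 program moved in both directions, as the members did. Of 24 genes, 21 were tested, and in cold wild-type mice 3 were called higher and 3 lower, with a median of −0.20. Each 3 is 14.3% of those tested, beside 10.3% and 6.93% of all genes. *Fgf21*, the stress hormone, had 5, 1 and 5 counts in wild-type mice at 30°C and 14, 116 and 85 counts at 8°C. In HY/HY animals *Fgf21* had 6, 45 and 4 counts at 30°C and 2, 3 and 3 counts at 8°C. It was called higher with cold in wild-type mice, lower in cold HY/HY animals than in cold wild-type mice, and in the interaction, and with so few counts no fold change is given for it in the comparisons. Replicate 2 of the HY/HY animals at 30°C, which had the high *Atf5*, also had the 45 counts of *Fgf21*.

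*Vldlr*, a lipoprotein receptor, had a wild-type cold response of 1.76 ± 0.32, and *Slc1a4*, a transporter of neutral amino acids, of −1.67 ± 0.26. *Cbs*, which draws serine into cysteine synthesis, stood at 12.9, 20.5 and 12.6 CPM in wild-type mice at 30°C and at 3.86, 6.56 and 7.44 CPM at 8°C. In HY/HY animals *Cbs* stood at 10.2, 9.06 and 13.1 CPM at 30°C and at 19.4, 10 and 16.6 CPM at 8°C. As for *Phgdh*, the 3 cold wild-type mice lay below all other libraries. *Cbs* was called higher in cold HY/HY than in cold wild-type mice (1.36 ± 0.31, adjusted p = 0.0215), with an interaction of 1.87 ± 0.42 (adjusted p = 0.0432). *Got1*, the cytosolic aspartate aminotransferase, was called lower in that comparison of genotypes, at −1.49 ± 0.25. Of the 12 fits that left out 1 library, the interaction was lost in 9 for *Cbs*, in 10 for *Hspa9* and in 8 for *Fgf21*, while the call of *Got1* at 8°C was lost in none.

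Of the other lists, the 18 genes of folate metabolism and glycine cleavage had 4 called higher and 1 lower in cold wild-type mice, which is 22.2% and 5.56%, beside the same 10.3% and 6.93%. *Gcsh*, a carrier protein of glycine cleavage, *Tyms*, which makes thymidylate, and *Shmt1*, the cytosolic counterpart of *Shmt2*, had the highest called values, at 1.11, 0.93 and 0.77, and *Shmt1* was lower in cold HY/HY than in cold wild-type mice, at −0.87 ± 0.14. Of 20 aminoacyl-tRNA synthetases *Gars* was called, at 1.10 ± 0.12 with cold in wild-type mice and −0.60 ± 0.12 between genotypes at 8°C. Of 32 genes of ER-associated degradation and translocation *Derl1* was called, at 0.71 ± 0.13 with cold in wild-type mice. Of 8 other ER stress sensors tested *Creb3l4* was called lower there, at −1.15 ± 0.36, a call that was lost without any one of 7 libraries. None of the 23 other ER folding genes and none of the 14 genes of eIF2 and its control was called with cold in wild-type mice, and *Manf*, a secreted ER stress protein, was the only one of these lists called between genotypes at 8°C, at −0.66 ± 0.12.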

How the data were processed

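RNA-seq of scWAT from 12 mice, 3 in each of 4 groups, was used. Per the study's methods and the files, the authors trimmed paired reads with fastp and used STAR on mm10, and the deposited gene counts, which carry GENCODE M25 identifiers and no normalization, are given without regard to strand and by strand. The sense-strand counts were used, which hold at least 95.5% of those without regard to strand. Entries that name no gene stayed out of library sizes: 25.1% to 28.8% of pairs did not align, 26.7% to 32.2% aligned to several places, 1.99% to 3.20% fell outside genes and 0.93% to 1.1% were ambiguous. Symbols were found for 32589 of 55401 identifiers, and 2645 identifiers that share a symbol were left out.

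Counts were analysed with edgeR 4.0.16 in R 4.3.3, with filterByExpr, TMM factors of 0.859 to 1.17, and a quasi-likelihood fit of 1 mean per group to all 12 libraries without covariates (8 residual degrees of freedom, common biological coefficient of variation 20.7%). All adjusted p-values are two-sided, from edgeR's quasi-likelihood test unless DESeq2 (1.42.0) is named. They were adjusted by Benjamini and Hochberg over the genes tested in each fit, which are 16540 in the main fit. The study's methods name no count test, and the fold limits are those it states for its gene list. The fit was tested on simulated data. Levels between genes were compared per kilobase of merged exons. The replicate numbers in the labels were checked for pairing by the correlation of residuals of same-numbered mice. All 3 pairs were over 0.1 between the HY/HY groups (0.11 to 0.30), and the fit with the number as a block is given beside their cold response. These correlations do not show that the mice were paired, and nothing in the labels says more of a replicate than its mouse. In the other 3 comparisons of groups 2 of 3 pairs were over 0.1, and the highest correlation, 0.35, was between the genotypes at 30°C. The block gives each number 1 effect over all 12 libraries, also in the wild-type groups. The p-values measure the spread between these mice.

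The 31 genes and the further lists were chosen with earlier results of these data known. Named are all 31 members, with values in each mouse for called members and, in roles without a call, for the most abundant member. Of each further list, up to 3 called genes with the largest change per comparison are named. *Kdm3a* and *Ucp1* were added, and the ratio of *Phgdh* to *Psph*, the called cell markers, *Sfxn1* and *Psma1* were chosen after their values were seen. Promoters are from RefSeq (GRCm38.p6), without an entry for *Atf6*. Alternatives were DESeq2, library totals, other filters, genes of mitochondrial DNA left out, only the libraries compared, counts of both strands, no fold limit, a replicate block, and each library left out.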

Additional observations from a re-analysis of the deposited data

Results flagged for a closer look

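For 5 genes the cold response differed between the genotypes by edgeR's test of the interaction, given as the HY/HY response minus the wild-type response on the log2 scale. Among the members these were *Atf5* at −1.80 (adjusted p = 0.0461) and *Psph* at −1.12 (adjusted p = 0.0377). Among the further lists they were *Hspa9* at −1.05 (adjusted p = 0.0377), *Cbs* at 1.87 (adjusted p = 0.0432) and *Fgf21*, whose fitted value of −6.77 (adjusted p = 0.0345) rests on 2 to 3 counts in the cold HY/HY libraries and is no measure of size. Only *Cbs* had a positive value, and all 5 calls were lost in at least 8 of the 12 fits that left out 1 library.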

How the results depend on the processing

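The direction of all 38 results of named members and further genes called by the main fit held under every alternative in which they could be fitted, and 19 of the 38 were called in every one. Of the 11 calls of members, 5 were called in every alternative, namely *Atf5*, *Phgdh*, *Psph*, *Xbp1* and *Dnajb9* with cold in wild-type mice. DESeq2 called 2 members with cold in HY/HY animals, 1 between genotypes at 30°C and 6 at 8°C. Among the further genes it called 3, 2 and, in the interaction, 10. Over all genes it also called more than edgeR, at 8°C 406 higher and 962 lower beside 249 and 731. Library totals in place of TMM gave 10 members with cold in wild-type mice, 1 in HY/HY animals and 1 in the interaction. Without a filter there was 1 member with cold in HY/HY animals and 1 at 30°C, with 2 further genes at 30°C, and counts of both strands left 1 member in the interaction. Without the fold limit 57 further genes were called with cold in wild-type mice.

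Leaving out 1 library at a time gave 5 to 6 members with cold in wild-type mice, 0 to 4 in HY/HY animals (4 without replicate 3 at 30°C), 0 between genotypes at 30°C, 0 to 4 at 8°C and 0 to 3 in the interaction. The further genes called were 25 to 40 with cold in wild-type mice, 0 to 9 in HY/HY animals (9 without replicate 3 at 30°C), 0 to 2 between genotypes at 30°C, 3 to 12 at 8°C and 0 to 8 in the interaction. The cause of these shifts was not tested.

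With the replicate number as a block, 3 members were called with cold in HY/HY animals (*Asns*, *Psat1* and *Dnajb9*), 6 with cold in wild-type mice, 0 and 3 between genotypes at 30°C and 8°C and 2 in the interaction, and 2 further genes with cold in HY/HY animals and 5 in the interaction. Those 3 member calls in HY/HY animals apart, the block changed no call of a member. The named further genes called by the main fit kept their calls, and calls of the cell markers with the block were not compared. Over all groups, residuals of libraries with the same number correlated at −0.07 to 0.35 (median 0.11), with 11 of 18 pairs over 0.1, and 5 of 12 libraries lay closest to their own number. With 3 mice a group and counts as low as 14 for *Chac1*, changes in the scarce members are not detectable at this depth unless large.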
